A study of Mus musculus with 2 samples.

Results

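The 7 genes Ly6a, Ly6c1, Ly6c2, Ly6d, Ly6e, Ly6g and Ly6i of the mouse lymphocyte antigen 6 (Ly6) family were followed through the immune cells of MC38 tumours, and they are 7 of the 27998 genes in the deposited matrices. They were chosen by symbol, for their measured levels per cell class and their ratios between treatments in these same libraries, so what follows describes those values and tests nothing. MC38 is a mouse colon carcinoma line. It was placed intradermally at 4 sites per animal in C57BL/6J mice (strain given as C57BL/6), left for 7 days, after which tumours received either a control injection or antibody to PD-1, an inhibitory receptor of T cells, at 200 µg per mouse per day. Tumours were taken on day 10, and viable cells carrying CD45, the surface protein shared by white blood cells, were sorted and made into 10x Genomics 3' libraries. There was 1 control and 1 anti-PD-1 library. How many mice stand behind each, and what the control injection was, the labels do not say.

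Ly6 proteins are small, disulphide-rich proteins that fold into a three-finger domain and are mostly held on the outer cell surface by a glycosylphosphatidylinositol (GPI) anchor. Immunologists know several of them as antigens. Ly6a encodes Sca-1, found on blood stem cells and activated lymphocytes. Ly6c1 and Ly6c2 encode the Ly6C antigen that marks inflammatory monocytes and antigen-experienced CD8+ T cells, Ly6g encodes the neutrophil antigen Ly6G, and Ly6d marks B-lineage and plasmacytoid dendritic cells. Ly6e and Ly6a are known to respond to interferon.

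All 7 genes lie in 1 cluster on mouse chromosome 15 (GRCm38, GENCODE M21), spanning 397 kb from Ly6d at chr15:74762056-74763620 to Ly6g at chr15:75155240-75159126. Between them lie Ly6e at chr15:74955051-74959905, Ly6i at chr15:74979534-74983430, Ly6a at chr15:74994877-74998031, Ly6c1 at chr15:75044018-75048830 and Ly6c2 at chr15:75108158-75111970. Ly6e and Ly6g are on the plus strand and the other 5 on the minus strand. RefSeq promoter sequences (GRCm38.p6) were matched for 3 of the 7 members, Ly6c1, Ly6c2 and Ly6g. They are shown because these neighbouring, related genes differed in level or in class: Ly6c2 was abundant in monocytes and CD8+ T cells, Ly6c1 had few UMIs, most of them after anti-PD-1 in those same classes (41.5% in CD8+ T cells and 25.4% in classical monocytes), and Ly6g was found in neutrophils. Each sequence is the 250 bases before the most upstream listed start, read 5′ to 3′ on the gene's strand, with capitals marking GAGGAAGT, a sequence of the type bound by ETS factors such as PU.1.
Ly6c1, chr15:75048838-75049087, minus strand: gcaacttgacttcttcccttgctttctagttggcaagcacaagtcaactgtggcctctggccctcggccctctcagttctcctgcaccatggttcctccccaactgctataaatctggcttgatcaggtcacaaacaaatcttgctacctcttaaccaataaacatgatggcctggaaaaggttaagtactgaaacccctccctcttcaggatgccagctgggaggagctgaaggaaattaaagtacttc
Ly6c2, chr15:75111972-75112221, minus strand: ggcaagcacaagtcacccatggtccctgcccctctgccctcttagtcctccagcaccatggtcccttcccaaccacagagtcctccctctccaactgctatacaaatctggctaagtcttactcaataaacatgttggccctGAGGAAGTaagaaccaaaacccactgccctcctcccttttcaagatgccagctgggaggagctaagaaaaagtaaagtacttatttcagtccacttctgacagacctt
Ly6g, chr15:75155011-75155260, plus strand: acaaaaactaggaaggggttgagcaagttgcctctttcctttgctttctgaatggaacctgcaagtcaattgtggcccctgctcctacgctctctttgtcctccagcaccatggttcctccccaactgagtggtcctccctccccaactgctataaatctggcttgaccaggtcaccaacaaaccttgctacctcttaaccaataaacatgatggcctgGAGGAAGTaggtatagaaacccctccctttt

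GAGGAAGT was searched on both strands after the sequences had been seen. It occurred 1 time in the Ly6c2 window, beginning 108 bases before the start, and 1 time in the Ly6g window, beginning 31 bases before it, and these letters were not in the Ly6c1 window. Of all 32851 listed promoters, 2.44% held it in the same window. Neither the core of the interferon-stimulated response element, searched as GAAANNGAA (7.13% of all promoters), nor the gamma-activated site, searched as TTCNNNGAA (7.02%) was in any of the 3 windows, on either strand. Aligned to each other, the Ly6c1 and Ly6g windows were identical at 83.5% of paired bases, Ly6c2 and Ly6g at 78.0%, and Ly6c1 and Ly6c2 at 75.9%. The transcripts of Ly6c1 and Ly6c2 are closer still: the last 300 bases of their first-numbered transcripts in GENCODE, where a 3' library draws its reads, were 97.95% identical, and 27.0% of the 60-base stretches there were present in both. The sources used here do not say how the counting treated reads that fit both genes, so Ly6c1 values are uncertain where Ly6c2 is abundant. No 60-base stretch was shared between the ends of Ly6a, Ly6i and either Ly6c gene.

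Levels are UMI counts (distinct captured transcripts) of a gene summed over the cells of a class in 1 library, per 1000000 UMIs of that class (CPM). Classes were gated on marker genes that do not include any Ly6 gene. After filtering there were 1190 control and 3377 anti-PD-1 cells, with medians of 3239 and 2725 UMIs and 5203415 and 13717817 UMIs over all barcodes. The leading genes of each class included those of its gate or cell type, but genes of regulatory T cells also led 2 gates that had no Foxp3 UMI: Tnfrsf4, Icos and Izumo1r in CD4-gated cells, and Ikzf2 and Tnfrsf4 in coreceptor-negative T cells. A gate on 1 or 2 UMIs misses shallow cells, 11.9% of the control library's cells and 9.06% of the other's passed no gate, and 1.18% and 1.66% passed 2 or more and were left out. Doublets were removed only in that way. Some gates excluded the markers of others, so a myeloid cell with 2 sets of markers could pass as 1 class. A cell with C1q above its minimum was not gated as monocyte, cDC2 or neutrophil. A cell with neutrophil markers and more than 1 UMI of Csf1r, Ccr2 and Fcgr1 could pass as a monocyte. Such cells are not counted in the 1.18% and 1.66%. The libraries shared 4 cell barcodes. Intervals in brackets are 95% limits from counting alone. With 1 library per group they hold no spread between animals, they are too narrow where a few cells carry most of a gene's UMIs, and no test between the treatments can be made. RNA free in the suspension, read from barcodes with 10 to 50 UMIs, amounted to an estimated 1.59% of a control cell and 1.95% of an anti-PD-1 cell. That corresponds to 14.3 and 38.3 CPM of Ly6c2 and to 17.7 and 33.4 CPM of Ly6a in a cell that makes none, and to 0.986 and 4.12 CPM of Ly6i.

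**Figure D1:**
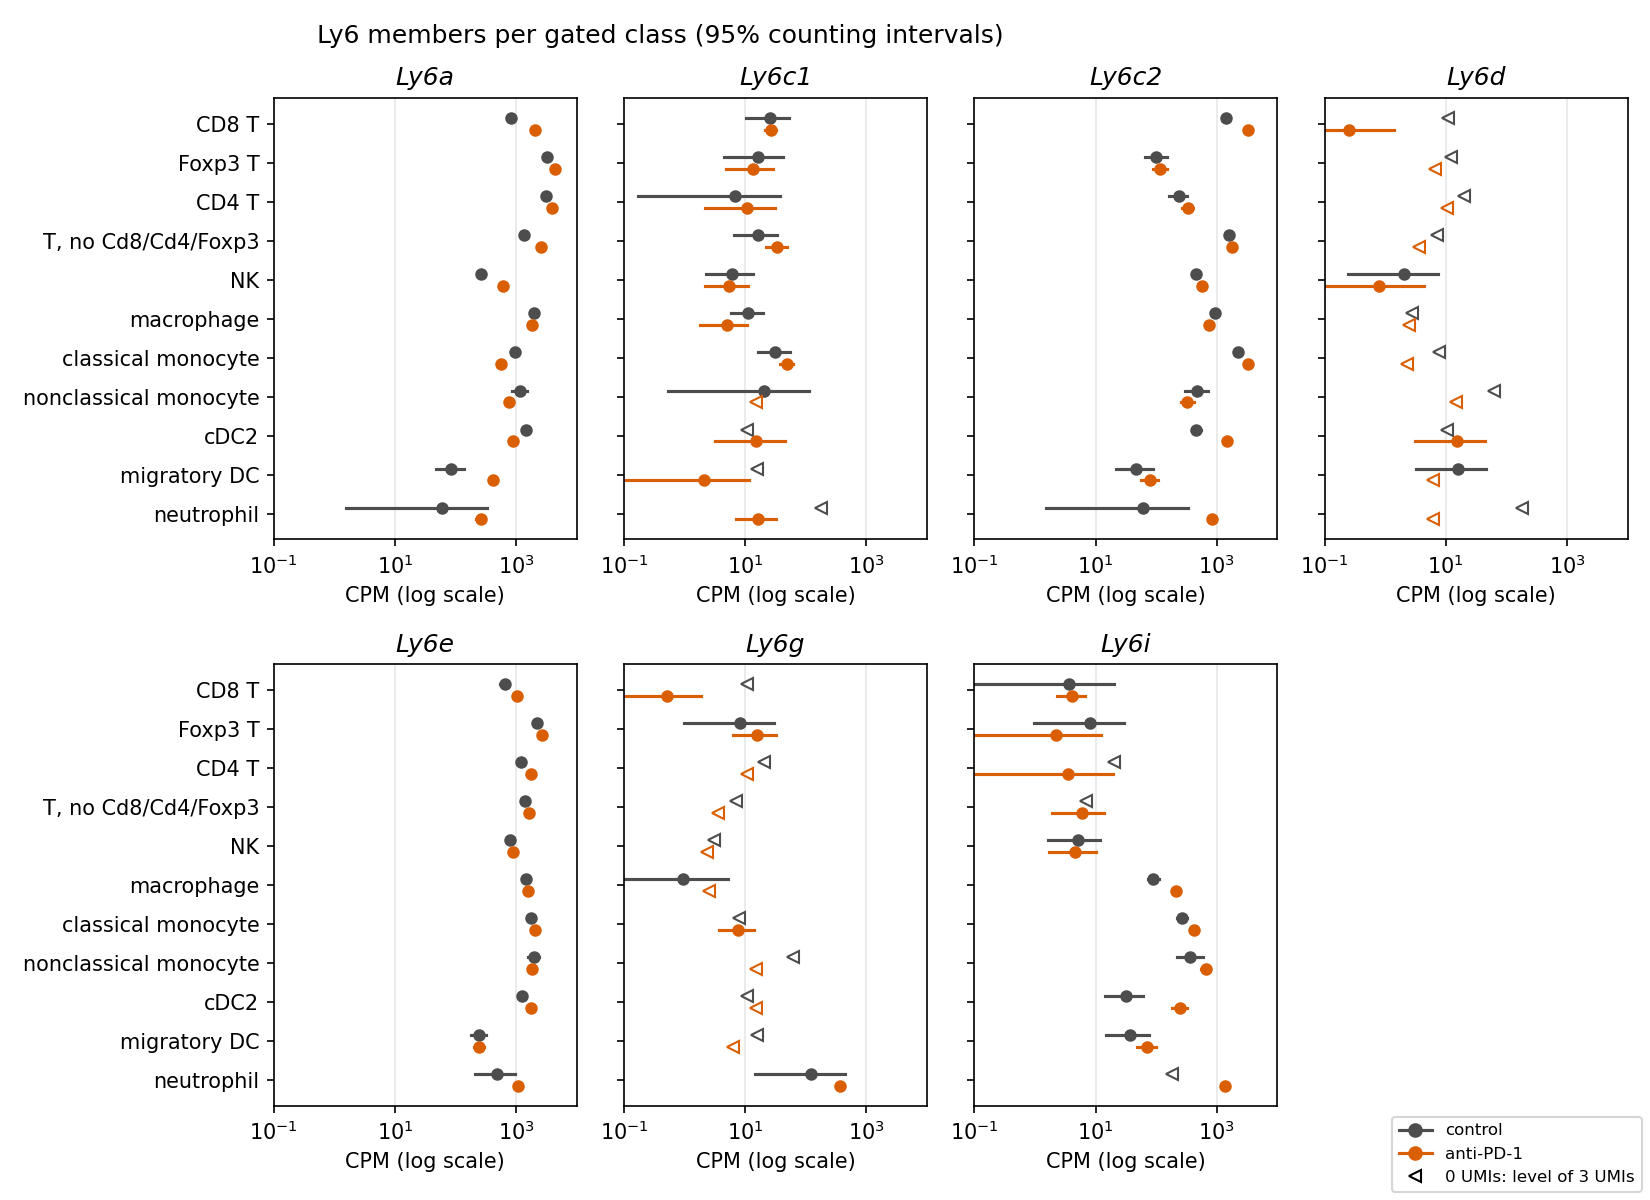
Level of each Ly6 gene (CPM, log axis) in 11 gated classes of the control (grey) and anti-PD-1 (orange) library, with 95% counting intervals; an open arrow stands at the level of 3 UMIs where a gene had 0 UMIs. Ly6a and Ly6e had UMIs in all 11 classes, Ly6i was found mainly in myeloid classes, and Ly6g stood above 20 CPM in neutrophils alone.

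Of the 70 combinations of 7 members and the 10 classes that had 20 or more cells in each library, 39 had at least 20 UMIs over both libraries and were compared. In 12 of the 39 the level was at least 2-fold higher in the anti-PD-1 library and in 0 it was at least 2-fold lower, and 34 lay above a log2 ratio of 0. The 12 include Ly6i, Ly6c2 and Ly6g in neutrophils, with 0, 1 and 2 control UMIs, each set to a floor of 3 UMIs. They also include Ly6c1 in coreceptor-negative T cells, with an interval that reaches below 0. Over all genes with at least 20 UMIs, 3.18% to 12% were at least 2-fold higher and 1.86% to 15.5% at least 2-fold lower, depending on the class. No p-value, adjusted or unadjusted, can be given for these counts. A member with few UMIs enters a comparison only through the library where it is high, so the 39 do not stand for all members. The 31 combinations left out include Ly6d in all 10 classes and Ly6g in all but neutrophils.

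CD8+ T cells held the most Ly6a and Ly6c2 UMIs of any class after anti-PD-1, and both genes were over 2-fold higher there than in the control library. In the 71 control cells Ly6c2 stood at 1435 CPM [1297 to 1583], and after anti-PD-1, in 1082 cells, at 3277 CPM [3221 to 3334]. Its log2 ratio was 1.19 [1.05 to 1.34]. Ly6a stood at 833 CPM [729 to 947] in control and, after anti-PD-1, at 2043 CPM [1998 to 2088]; the log2 ratio was 1.29 [1.11 to 1.49]. The intervals of the libraries do not overlap for either gene. Ly6e went from 642 to 1020 CPM, a log2 ratio of 0.67 [0.45 to 0.89], and Ly6c1 stood at 25.2 CPM (7 UMIs) and 26.2 CPM (103 UMIs), a log2 ratio of 0.05 [-1.04 to 1.40]. So 2 of 4 members compared were at least 2-fold higher and 0 lower in CD8+ T cells, where 4.03% of 7949 genes were 2-fold higher and 5.94% 2-fold lower. The median log2 ratio was 0.93 over the 4 members and 0.05 over all genes.

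The counts in single CD8+ T cells show the same levels as shares of cells. Each cell was thinned to 1000 UMIs, so that depth was equal. Cells with both a Ly6a and a Ly6c2 UMI made up 22.5% [13.5 to 34.0] in control and 67.2% [64.3 to 70.0] after anti-PD-1. Cells with neither made up 31.0% [20.5 to 43.1] and 3.97% [2.89 to 5.32]. Those with Ly6c2 alone were 28.2% and 16.5%, and those with Ly6a alone 18.3% and 12.3%. For Ly6c2, 50.7% of control and 83.7% of anti-PD-1 CD8+ T cells had a UMI after thinning (64.8% and 92.6% before), beside 2.50% and 8.70% of Foxp3+ T cells, in which Ly6c2 was low. Median depths were 3254 and 2954 UMIs in CD8+ T cells and 2962.5 and 2268 UMIs in Foxp3+ T cells.

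**Figure D2:**
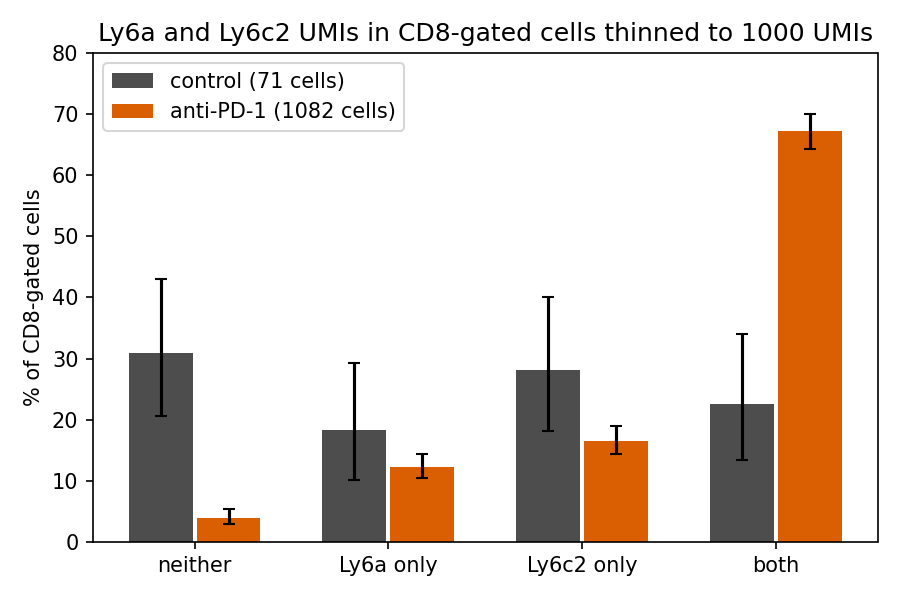
Share of CD8-gated T cells (%) with a UMI of neither gene, of Ly6a alone, of Ly6c2 alone or of both, after thinning each cell to 1000 UMIs; bars are shares of 71 control (grey) and 1082 anti-PD-1 (orange) cells and error bars exact binomial 95% intervals. Cells with both made up 22.5% in control and 67.2% after anti-PD-1.

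The make-up of the CD8 gate differed between the libraries: cells with a UMI of Gzmk, a granzyme of effector-memory cells, were 16 of 71 in control and 706 of 1082 after anti-PD-1. In Gzmk cells Ly6c2 stood at 1719 CPM in control and 3602 CPM after anti-PD-1, levels whose intervals do not overlap; the 16 cells were too few for a ratio. In cells with Gzmb, the cytotoxic granzyme B, but no Gzmk it stood at 1104 and 2762 CPM, a log2 ratio of 1.32 [1.08 to 1.57]. In cells with neither granzyme it was 1762 CPM (25 control cells) and 1658 CPM (81 anti-PD-1 cells), with a log2 ratio of -0.09 [-0.36 to 0.19]. Ly6a in those same cells was 583 and 1100 CPM, a log2 ratio of 0.91 [0.47 to 1.39]. Ly6c2 thus differed between libraries beyond counting error in granzyme-carrying cells and stayed within it in the others, while Ly6a differed in all 3; differences between subgroups were not tested. With the subgroups given the same weights in both libraries, the log2 ratios were 1.16 for Ly6a and 1.05 for Ly6c2. The weights followed the UMIs of both libraries together, so the Gzmk subgroup weighed most. Its control value in these ratios rests on the same 16 cells. Within the anti-PD-1 library, Ly6c2 was 2.17-fold higher in Gzmk cells than in cells with neither granzyme, and in the control library the same ratio was 0.976. Summed UMIs of 5 cycling genes were 389 CPM in control and 613 CPM in anti-PD-1 CD8+ T cells; without cycling cells the log2 ratio of Ly6a was 1.53. Monocyte-lineage markers (Csf1r, Fcgr1 and Ccr2, the last also known from T cells) summed to 82.9 and 248 CPM in this gate, with all 3 detected in both libraries, and S100a8 and S100a9 to 0 and 168 CPM; their part in the result was not tested.

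Among genes around these members, those of the interferon response were mostly higher in anti-PD-1 CD8+ T cells. Of 37 with enough UMIs, 32 lay above a log2 ratio of 0, 6 were at least 2-fold higher and 0 lower, with a median of 0.59. Over all genes there, 4.03% were higher, 5.94% lower and the median was 0.05. Elsewhere the median of the list was -0.14 in CD4-gated cells, where 16 of 29 lay below 0, and 0.07 in Foxp3+ T cells. It was 0.12 in classical monocytes, 0.27 in NK cells, 0.28 in coreceptor-negative T cells and 0.31 in macrophages. In cDC2 it was 0.35, in neutrophils 0.68 and in migratory dendritic cells 0.97. The most abundant in the list were Psmb8, an immunoproteasome subunit (952 and 1465 CPM), Isg15, a ubiquitin-like modifier (267 and 309 CPM), Psmb9, another immunoproteasome subunit (332 and 549 CPM), and Bst2, the antiviral tetherin (234 and 340 CPM). A list of 12 genes of T-cell memory and homing had median log2 ratios of 0.38 in CD4-gated, 0.24 in Foxp3+ and -0.28 in coreceptor-negative T cells. In NK cells its median was 0.27. In CD8+ T cells it went the other way from the interferon list, with 9 genes below 0 and a median of -0.60. There 3 were at least 2-fold lower and 1 at least 2-fold higher. In it Il2rb, a receptor chain for interleukins 2 and 15, stood at 238 and 179 CPM, Bcl2, a survival factor, at 278 and 144 CPM, Ccr7, a lymph node homing receptor, at 50.5 and 21.6 CPM, and Cd44, an adhesion receptor raised on antigen-experienced cells, at 115 and 91.4 CPM. The 1 gene past 2-fold higher was Cxcr3, a chemokine receptor of effector T cells (101 and 203 CPM), and the 3 past 2-fold lower were Ccr7, Tcf7, a transcription factor of stem-like T cells (68.5 and 20.3 CPM), and Il7r, the interleukin 7 receptor (148 and 63.0 CPM); Cxcr3, Tcf7 and Il7r were named after their values were seen.

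In Foxp3+ T cells, the regulatory T cells, Ly6a and Ly6e had their highest levels of the 10 classes compared. In 80 control cells Ly6a stood at 3229 CPM [3009 to 3461], and in 161 anti-PD-1 cells at 4364 CPM [4174 to 4560], a log2 ratio of 0.43 [0.32 to 0.55]. It had a UMI in all 80 control cells and in 98.8% of those after anti-PD-1. Ly6e stood at 2232 and 2627 CPM, a log2 ratio of 0.23 [0.09 to 0.38]. Ly6c2 was at 101 and 117 CPM, a log2 ratio of 0.20 [-0.51 to 0.95] that turned to -0.72 with the marker minimums doubled. None of the 3 members compared was 2-fold higher or lower, where 4.8% of genes were higher and 2.71% lower. CD4-gated cells were close to them in Ly6a, with 3075 CPM [2799 to 3370] over 44 control cells, 3883 CPM [3658 to 4118] over 105 anti-PD-1 cells, with a log2 ratio of 0.34 [0.18 to 0.50]; the control intervals of the 2 classes overlap. Ly6e there was 1218 and 1726 CPM, a log2 ratio of 0.50 [0.26 to 0.76], and Ly6c2 235 and 332 CPM, a log2 ratio of 0.50 [-0.08 to 1.10]. Again 0 of 3 members passed 2-fold in either direction, beside 6% of genes higher and 2.76% lower.

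T cells with no UMI of Cd8a, Cd8b1, Cd4 or Foxp3 had UMIs of Ly6a and Ly6c2. Regulatory T-cell genes were among those that led this gate, in control Ikzf2, Tnfrsf4, Icos and Ctla4 and after anti-PD-1 Ikzf2, Tnfrsf4, Tnfrsf18, Areg and Tnfrsf9, beside Klra1 in both. Ly6a stood at 1353 CPM [1245 to 1468] over 145 control cells, 2568 CPM [2460 to 2679] over 329 anti-PD-1 cells, with a log2 ratio of 0.92 [0.79 to 1.06]. Ly6c2 stood at 1604 and 1792 CPM, a log2 ratio of 0.16 [0.03 to 0.29], and Ly6e at 1414 and 1611 CPM. Ly6c1 was the 1 of 4 members past 2-fold, from 7 control and 28 anti-PD-1 UMIs, with a log2 ratio of 1.03 [-0.20 to 2.47] whose interval reaches below 0; 4.68% of genes were 2-fold higher and 1.86% lower. Cells of this gate with a UMI of Klra1, a Ly49 receptor, or Il22, a cytokine of innate-like lymphocytes, had a different mixture from the rest. Their Ly6c2 was 2726 CPM (31 control cells) and 3660 CPM (46 cells after anti-PD-1), against 1192 and 1432 CPM in the other cells of the gate. Their Ly6a was 411 and 1396 CPM, against 1699 and 2793 CPM. In each library, then, the Klra1 or Il22 cells were the higher in Ly6c2 and the lower in Ly6a. In the gate as a whole MHC class II UMIs were 185 and 625 CPM, and S100a8 and S100a9 UMIs 363 and 78.0 CPM; the part of these and of the regulatory T-cell genes in the result was not tested.

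NK cells had little Ly6a in the control library and more in the anti-PD-1 library. The level was 267 CPM [236 to 302] over 278 control cells and 605 CPM [564 to 649] over 435 anti-PD-1 cells. The log2 ratio was 1.18 [0.98 to 1.39]. After thinning, 16.2% of control and 27.1% of anti-PD-1 NK cells had a Ly6a UMI. Ly6c2 was at 463 and 574 CPM, a log2 ratio of 0.31 [0.14 to 0.48], and Ly6e at 798 and 896 CPM, a log2 ratio of 0.17 [0.04 to 0.30]. So 1 of 3 members was 2-fold higher and 0 lower, beside 3.18% and 1.99% of genes. Summed MHC class II UMIs, from antigen-presenting cells, were 1483 CPM in the control and 109 CPM in the anti-PD-1 NK gate; their part in the result was not tested.

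Inside the NK gate, summed Ly6c2 and Ly6a levels were higher in cells with the granzymes Gzmc to Gzmg, which mark strongly activated NK cells. Ly6c2 in cells with at least 3 UMIs of these genes stood at 1047 CPM (50 control cells) and 1024 CPM (105 after anti-PD-1). In the remaining cells it stood at 212 and 295 CPM. The fold between the subgroups was 4.94 in control and 3.47 after anti-PD-1, and that of Ly6a was 3.55 (537 against 151 CPM) and 2.55 (969 against 381 CPM). Ly6e did not share this: its log2 ratio between the subgroups was 0.01 [-0.22 to 0.23] in control, and 0.20 [0.03 to 0.37] after anti-PD-1. Cells with these granzymes were deeper, with median depths of 5641.5 and 4161 UMIs against 2544.5 and 2047. After thinning, 26% of them and 9.21% of the remaining NK cells had a Ly6c2 UMI in control, and 37.1% and 13.9% after anti-PD-1. Few cells carried much of it: 5 of the 278 control NK cells held 46.7% of the Ly6c2 UMIs, and 5 of the 435 anti-PD-1 cells 21.5%. Between libraries, Ly6c2 was level within the granzyme subgroup, with a log2 ratio of -0.03 [-0.24 to 0.18], whereas Ly6a was higher in anti-PD-1 cells in both subgroups, by 0.85 and 1.33 on the log2 scale.

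**Figure D3:**
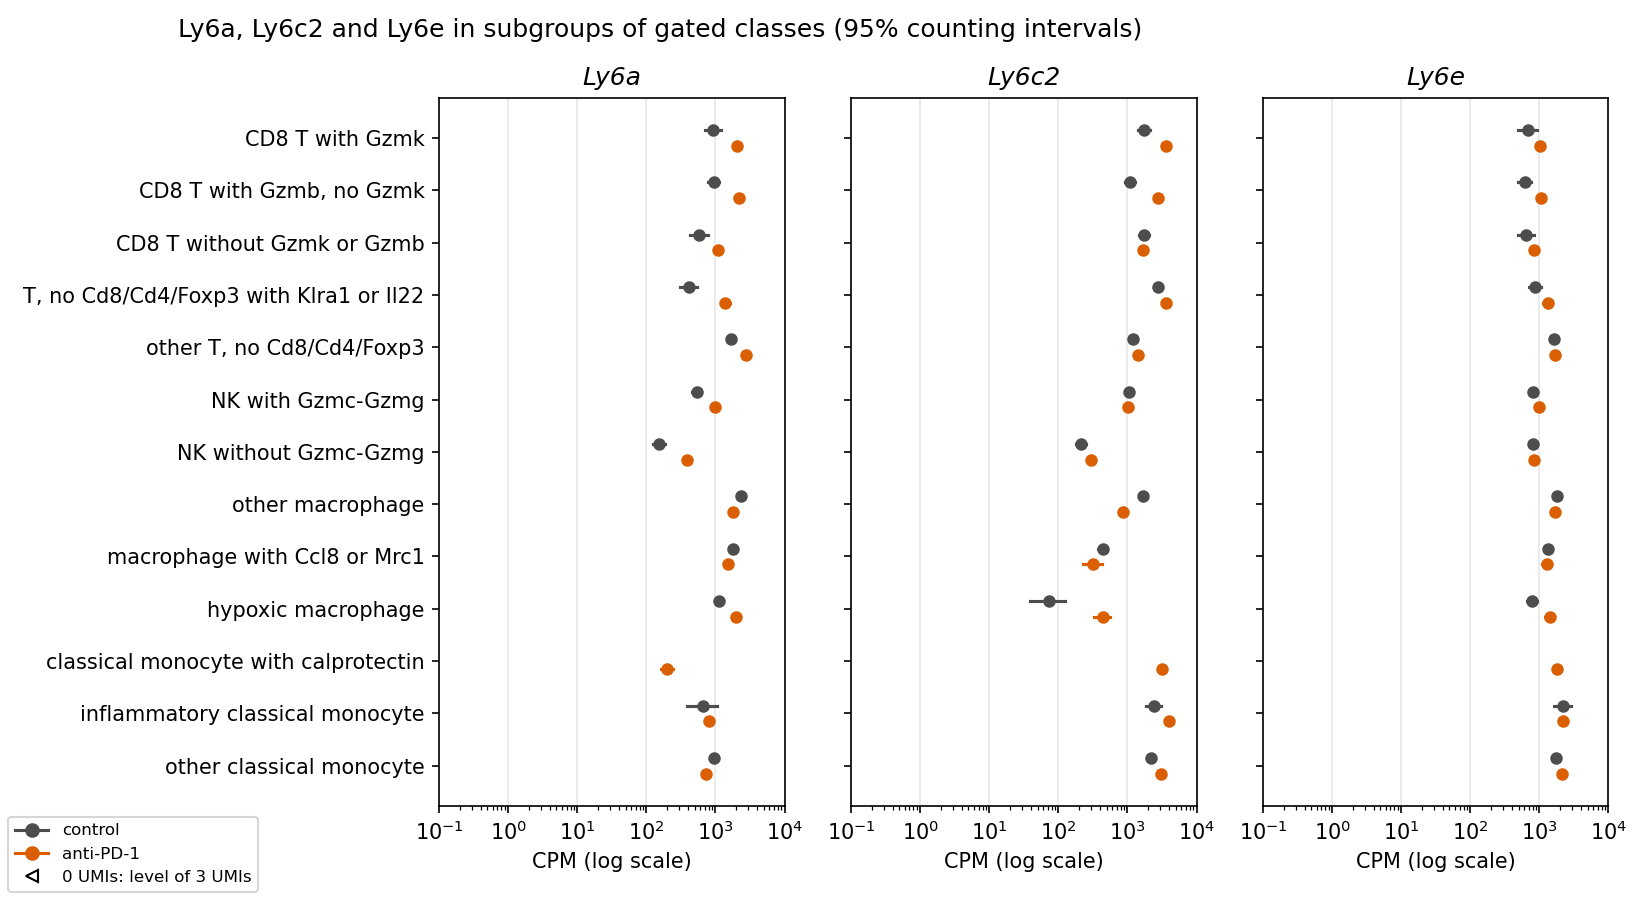
Levels of Ly6a, Ly6c2 and Ly6e (CPM, log axis) in subgroups of 5 gated classes, control in grey and anti-PD-1 in orange, with 95% counting intervals. Ly6c2 was 4.94-fold and 3.47-fold higher in NK cells with Gzmc to Gzmg than in other NK cells, and hypoxic macrophages of the control library stood lowest for Ly6c2 at 74.1 CPM.

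Ly6c2 was high in classical monocytes, the class that Ly6C defines in flow cytometry and that was gated here on Hp, Chil3, F13a1, Vcan and Fn1. It stood at 2229 CPM [2082 to 2384] over 100 control cells, 3255 CPM [3158 to 3354] over 221 anti-PD-1 cells, with a log2 ratio of 0.55 [0.44 to 0.65]. The summed Ly6a level moved the other way, at 942 CPM [848 to 1045] and 551 CPM [512 to 593], a log2 ratio of -0.77 [-0.96 to -0.59]. The share of cells with a Ly6a UMI after thinning was close, 34% in control and 34.4% after anti-PD-1 (47% and 58.4% before). The 5 richest cells held 32.4% of its control and 19.3% of its anti-PD-1 UMIs. Ly6i stood at 269 and 415 CPM, a log2 ratio of 0.63 [0.32 to 0.94], Ly6e at 1765 and 2019 CPM, a log2 ratio of 0.19 [0.07 to 0.32], and Ly6c1 at 31.3 and 48.0 CPM. None of the 5 members compared was past 2-fold in either direction, beside 7.7% of genes higher and 4.66% lower. S100a8 and S100a9 UMIs were 13.1 CPM in control and 6525 CPM in anti-PD-1 monocytes, and MHC class II UMIs 16655 and 3227 CPM.

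Some monocytes were found in 1 library alone and had a low summed Ly6a level. The 56 classical monocytes with at least 10 UMIs of S100a8 and S100a9, which encode calprotectin, were all from the anti-PD-1 library. Their Ly6a was 201 CPM, against 719 CPM in the 114 anti-PD-1 monocytes with neither calprotectin nor inflammatory markers, while Ly6c2 was 3169 against 3043 CPM. The calprotectin cells were deeper, with a median of 8231.5 against 4340 UMIs. After thinning, 21.4% [11.6 to 34.4] of them and 35.1% [26.4 to 44.6] of the 114 had a Ly6a UMI, with overlapping intervals. Before thinning the shares were 55.4% and 57.9%. Compared between libraries, those 114 cells and the matching 94 control cells gave log2 ratios of -0.42 [-0.63 to -0.21] for Ly6a, 0.46 for Ly6c2 and 0.66 for Ly6i. Without the calprotectin cells the gate as a whole gave -0.34 for Ly6a. The 51 anti-PD-1 monocytes with Slpi, Il1rn and Irg1, inflammatory genes, had the most Ly6c2 of the gate, 3943 CPM. Nonclassical monocytes, the patrolling kind, were 14 in control and 41 in anti-PD-1, too few for a ratio. Their Ly6c2 was 472 and 329 CPM, below the classical monocytes in both libraries, but 1 of the 14 control cells held 18 of the 23 UMIs and 5 of the 41 anti-PD-1 cells held 72.7%. Their Ly6i was 369 and 658 CPM, above the classical monocytes in both libraries, with overlapping intervals in control.

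Macrophages, gated on the complement genes C1qa, C1qb and C1qc, differed little between libraries in 3 of 4 members. Ly6a stood at 1946 CPM (176 control cells) and 1793 CPM (199 anti-PD-1 cells), with a log2 ratio of -0.12 [-0.21 to -0.03]. Ly6e stood at 1458 and 1588 CPM, a log2 ratio of 0.12, and Ly6c2 at 934 and 757 CPM, a log2 ratio of -0.30 [-0.43 to -0.17]. Ly6i was the 1 member past 2-fold, at 89.9 CPM [72.9 to 110] and 210 CPM [185 to 238], a log2 ratio of 1.23 [0.88 to 1.58]; 4.17% of genes were 2-fold higher and 3.46% lower. Ly6i UMIs were unevenly spread, with 40.2% of the 97 control and 34.5% of the 255 anti-PD-1 UMIs in the 5 richest cells. MHC class II UMIs were 30058 and 12665 CPM in the macrophage gate, and S100a8 and S100a9 UMIs 197 and 534 CPM; their part in the result was not tested.

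Both Ly6c2 and Ly6i were lower in macrophages with more C1q. Cells of both libraries together were split into 3 groups of equal size by the C1q share of their UMIs. From the lowest to the highest group Ly6c2 stood at 1507, 1339 and 396 CPM in control, and at 1052, 755 and 347 CPM after anti-PD-1. Ly6i stood at 149, 152 and 19.9 CPM and at 287, 195 and 118 CPM. Ly6a showed no such fall: it was 1990, 2176 and 1765 CPM in control and rose from 888 through 2286 to 2584 CPM in anti-PD-1. The libraries therefore differed most in Ly6a at low C1q, where the anti-PD-1 level was below the control level, and at high C1q it was above it. Ly6e stayed between 1375 and 1749 CPM in all 6 groups.

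**Figure D4:**
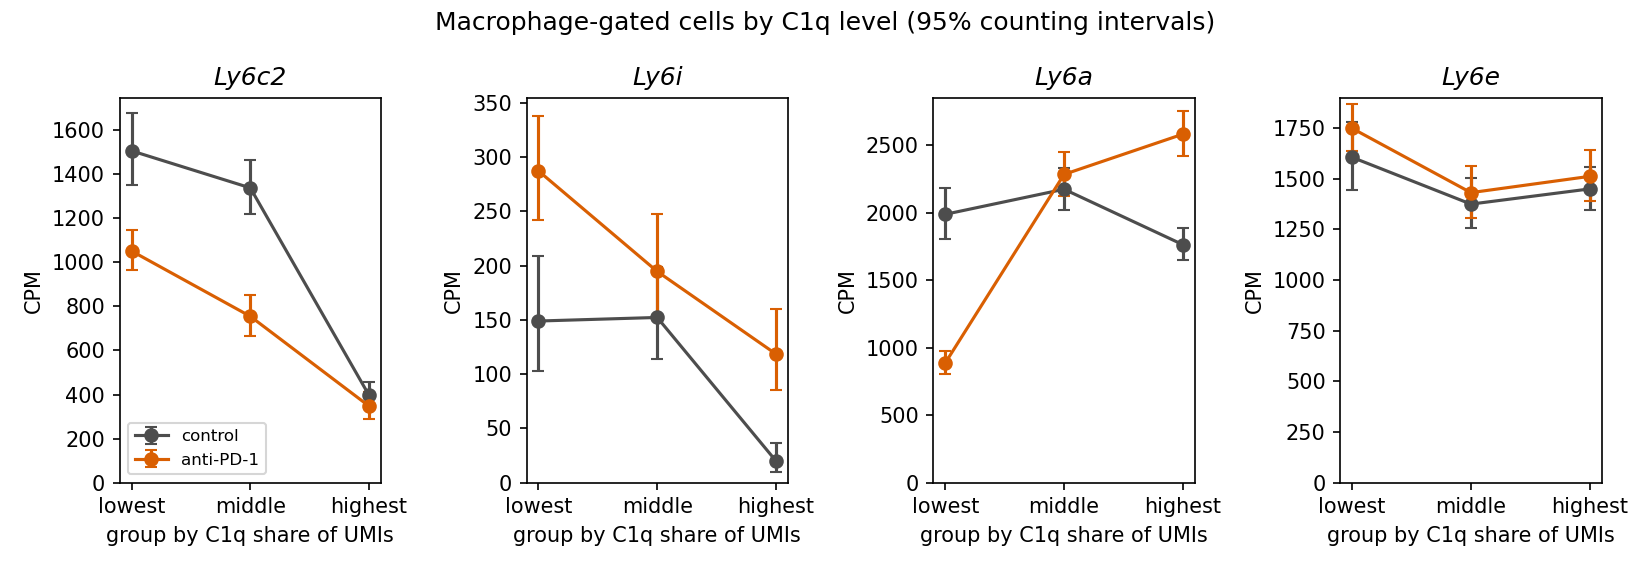
Levels of Ly6c2, Ly6i, Ly6a and Ly6e (CPM, linear axes from 0) in macrophage-gated cells split into 3 groups by the C1q share of UMIs, control in grey and anti-PD-1 in orange, with 95% counting intervals. Ly6c2 ended at 396 and 347 CPM in the highest group, and the Ly6a lines cross.

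Macrophages also divided by other genes. Hypoxic macrophages, with at least 5 UMIs of Hilpda, Mt2 and Hmox1, had Ly6c2 at 74.1 CPM (13 UMIs, 29 cells) in control and 437 CPM (60 UMIs, 23 cells) after anti-PD-1, for which the log2 ratio was 2.56 [1.68 to 3.55]. Their Ly6i went from 45.6 to 255 CPM and their Ly6a from 1123 to 1965 CPM. Macrophages with Ccl8 or Mrc1, genes of a tissue-resident-like state, had Ly6c2 at 441 and 315 CPM. The remaining macrophages went the opposite way from the hypoxic ones, with Ly6c2 at 1707 and 871 CPM, a log2 ratio of -0.97 [-1.11 to -0.83]. The shares of these subgroups differed between libraries (the remaining kind made up 89 of 176 cells in control and 155 of 199 after anti-PD-1). With the subgroups given the same weights in both libraries, the log2 ratio of Ly6c2 was -0.79 and that of Ly6i 0.75. These weights followed the UMIs of both libraries together, so the remaining kind weighed most.

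Conventional type 2 dendritic cells (cDC2), which present antigen to CD4+ T cells, had Ly6c2 at 462 CPM [386 to 549] over 40 control cells, 1477 CPM [1312 to 1657] over 33 anti-PD-1 cells, with a log2 ratio of 1.68 [1.37 to 1.98]. Ly6i stood at 31.8 CPM (9 UMIs) and 249 CPM (49 UMIs), a log2 ratio of 2.97 [1.93 to 4.18], and of 2.1 with the marker minimums of the gates doubled. Few cells carried these counts: 5 of the 33 anti-PD-1 cells held 69.1% of the Ly6c2 and 89.8% of the Ly6i UMIs, and 5 of the 40 control cells held 77.1% of the Ly6c2 UMIs. Ly6e was at 1232 and 1726 CPM, a log2 ratio of 0.49, and Ly6a at 1468 and 898 CPM, a log2 ratio of -0.71 [-0.97 to -0.45] that turned to 0.22 with the minimums doubled. Ly6a too was carried by few cells, with 62.3% of its control and 55.4% of its anti-PD-1 UMIs in the 5 richest. Of the 4 members 2 were 2-fold higher and 0 lower, beside 5.28% and 5.36% of genes. MHC class II UMIs were 44021 and 22478 CPM in this gate, monocyte markers summed to 815 and 624 CPM with all 3 detected in both libraries, those of classical monocytes to 300 and 660 CPM with 4 of 5 and 5 of 5 detected, and S100a8 and S100a9 to 10.6 and 178 CPM; their part in the result was not tested.

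Migratory dendritic cells, which carry antigen to lymph nodes and express Ccr7, Fscn1 and Ccl22, were the lowest of the 10 classes in Ly6e and Ly6c2 in both libraries, with intervals that overlap those of control neutrophils for both genes and of Foxp3+ T cells for Ly6c2. Ly6e stood at 242 and 241 CPM, a log2 ratio of 0.00 [-0.51 to 0.52], and Ly6c2 at 47.3 and 78.3 CPM. Ly6a was the 1 of 4 members past 2-fold, at 84.0 CPM (16 UMIs in 35 cells) and 410 CPM (199 UMIs in 107 cells), a log2 ratio of 2.29 [1.55 to 3.12], and of 1.52 with the marker minimums doubled. In control 1 cell held 11 of the 16 UMIs, and in anti-PD-1 30 cells had a UMI and 5 of them held 65.8%. In this class 12% of genes were 2-fold higher and 3.19% lower. Of 28 interferon-response genes compared here, 14 were at least 2-fold higher and 0 lower, with a median log2 ratio of 0.97. S100a8 and S100a9 UMIs were 0 and 214 CPM in this gate and monocyte markers 15.8 and 80.4 CPM; their part in the result was not tested.

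Ly6g and Ly6i were highest in neutrophils after anti-PD-1, but the control library held few neutrophils to set beside them. It held 20 neutrophils with 16586 UMIs in all (median 759.5 per cell), against 249 with 491673 UMIs (median 1693). Ly6i had 0 UMIs in control and 678 UMIs (1379 CPM) in anti-PD-1 neutrophils, 7.62-fold above the control class set to a floor of 3 UMIs, which is 181 CPM. That log2 ratio of 2.93 fell to 2.19 with thinned cells, and its lower counting limit was 2.63. Those 678 UMIs came from 108 cells, the richest with 90. Ly6g, the defining antigen, had 2 UMIs in control (121 CPM) and 183 (372 CPM) in anti-PD-1 neutrophils, a ratio with a log2 interval of -0.25 to 4.68. Ly6c2 had 1 and 407 UMIs (log2 interval 1.29 to 9.09; 2.19 against the floor, and 1.13 with thinned cells), Ly6a 1 and 128 UMIs (-0.39 to 7.43), and Ly6e 8 and 520 UMIs, at 482 and 1058 CPM with a log2 ratio of 1.13 [0.14 to 2.35].

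With the floor, 4 of 5 members were 2-fold higher and 0 lower in neutrophils, beside 3.43% of genes higher and 15.5% lower. The members and these shares are not a like comparison. Ly6i, Ly6c2, Ly6a and Ly6g had 0, 1, 1 and 2 control UMIs and were compared only through their anti-PD-1 counts. With the floor, only genes with large anti-PD-1 counts could come out 2-fold higher, and genes left without a ratio stayed in the base. In neutrophils the median log2 ratio of all genes was -0.54. Genes of immature neutrophils were at 0 UMIs for all 3 markers in the control gate and summed to 5506 CPM in the anti-PD-1 gate; their part in the result was not tested. A Ly6g UMI was seen in 10.8% of anti-PD-1 neutrophils after thinning to 500 UMIs (23.7% before), and in 0 of the 435 NK cells of that library (3 cells would be 0.690%). Of the 206 Ly6g UMIs in the anti-PD-1 library, 88.8% were in neutrophils, and all 10 in classical monocytes were in the calprotectin cells.

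**Figure D5:**
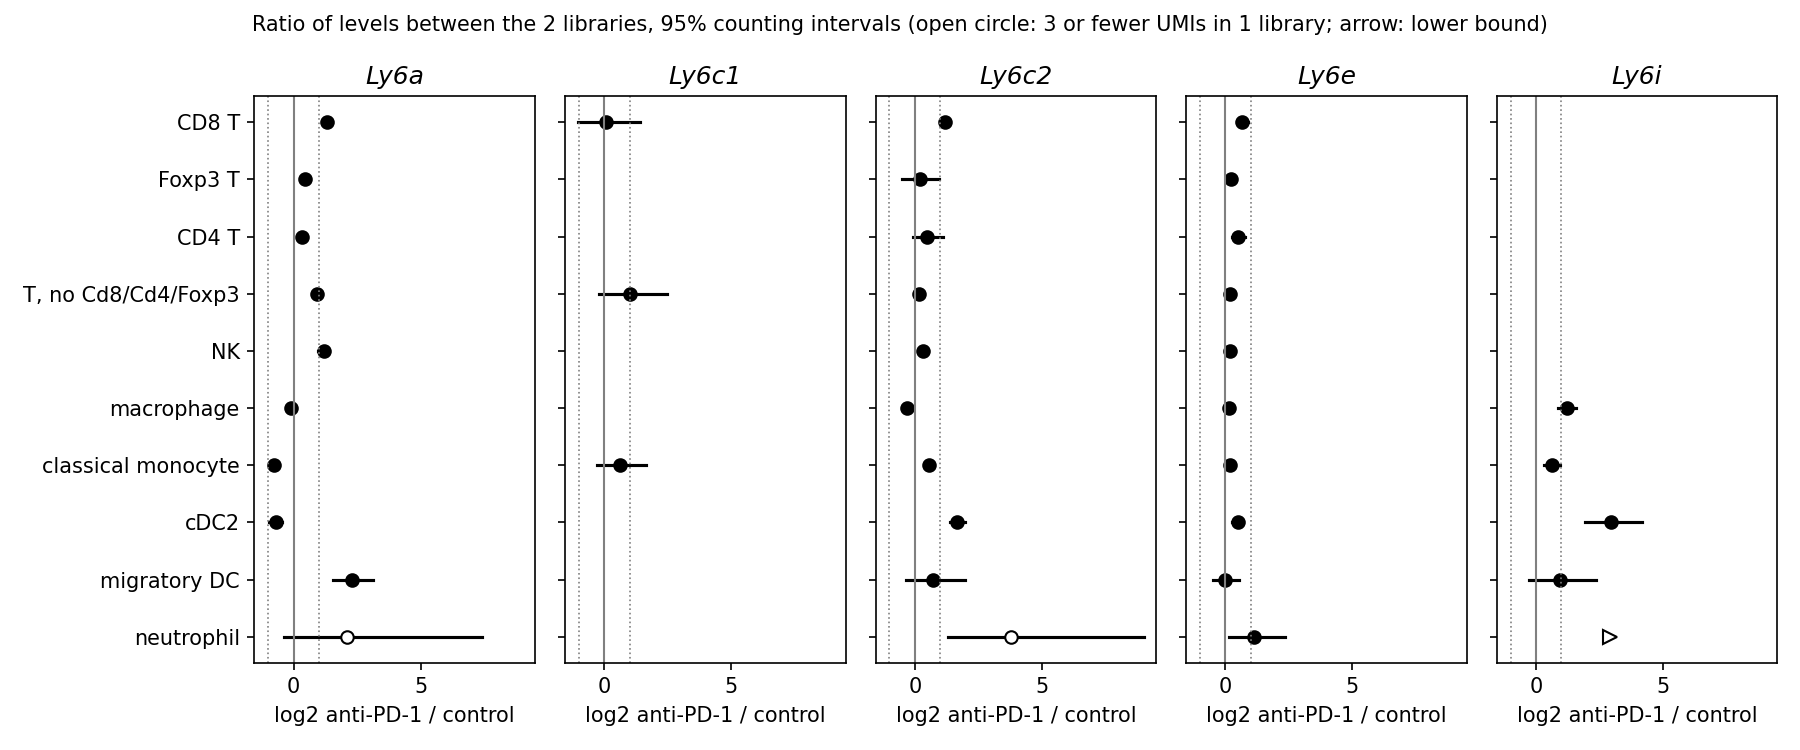
Log2 ratio of anti-PD-1 over control level for the 5 members compared in 3 or more classes, with 95% counting intervals; dotted lines mark 2-fold, an open circle a library with 3 or fewer UMIs and an arrow a lower bound. Ly6a ran from -0.77 in classical monocytes to 2.29 in migratory dendritic cells among classes with more than 3 UMIs in each library, and Ly6e stayed between 0.00 and 1.13.

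The order of levels over the 10 classes changed between libraries. For Ly6a in the control library the order ran from Foxp3+ and CD4+ T cells (3229 and 3075 CPM, overlapping intervals) through macrophages (1946), cDC2 (1468) and coreceptor-negative T cells (1353, overlapping cDC2), classical monocytes (942) and CD8+ T cells (833, overlapping them) to NK cells (267), migratory dendritic cells (84.0) and neutrophils (60.3 from 1 UMI, overlapping both). In the anti-PD-1 library it ran from Foxp3+ T cells (4364), CD4+ T cells (3883), coreceptor-negative T cells (2568), CD8+ T cells (2043) and macrophages (1793) to cDC2 (898), NK cells (605), classical monocytes (551, overlapping NK cells), migratory dendritic cells (410) and neutrophils (260). Ly6c2 in control ran from classical monocytes (2229) through coreceptor-negative T cells (1604) and CD8+ T cells (1435, overlapping them) to macrophages (934), NK cells and cDC2 (463 and 462), CD4+ T cells (235), Foxp3+ T cells (101), neutrophils (60.3 from 1 UMI) and migratory dendritic cells (47.3), the last 3 with overlapping intervals. After anti-PD-1, CD8+ T cells (3277) and classical monocytes (3255) had overlapping intervals at the top, followed by coreceptor-negative T cells (1792), cDC2 (1477), neutrophils (828) and macrophages (757, overlapping them), NK cells (574), CD4+ T cells (332), Foxp3+ T cells (117) and migratory dendritic cells (78.3, overlapping them). Ly6e had a narrower range. In control it ran from Foxp3+ T cells (2232) and classical monocytes (1765) through macrophages (1458), coreceptor-negative T cells (1414), cDC2 (1232) and CD4+ T cells (1218), each overlapping the next, to NK cells (798), CD8+ T cells (642), neutrophils (482 from 8 UMIs) and migratory dendritic cells (242), with neutrophils overlapping the other 3. After anti-PD-1 Foxp3+ T cells (2627) and classical monocytes (2019) again led, CD8+ T cells (1020) and neutrophils (1058) overlapped, and NK cells (896) stood above migratory dendritic cells alone (241). Ly6i after anti-PD-1 ran from neutrophils (1379) and classical monocytes (415) through cDC2 (249) and macrophages (210, overlapping them) to migratory dendritic cells (70.1), and it was between 2.20 and 6.00 CPM in the 5 lymphocyte classes, at or near its free-RNA level. CD8+ T cells held 10.3% of all Ly6c2 UMIs in control and 57.1% after anti-PD-1, while they were 5.97% and 32.0% of the cells.

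Ly6d had UMIs almost only outside these classes, and after anti-PD-1 mostly in cells that were left out: 42.1% of its 145 UMIs were in cells passing 2 or more gates and 12.4% in cells passing none, against 24.1% in B cells and 17.9% in plasmacytoid dendritic cells. In control, 66.7% of 51 UMIs were in B cells and 9.80% in cells passing 2 or more gates. In B cells it stood at 2118 CPM (34 UMIs in 9 cells) in control and 5072 CPM (35 UMIs in 4 cells) in anti-PD-1, and in plasmacytoid dendritic cells at 1835 CPM (7 UMIs in 1 cell) and 992 CPM (26 UMIs in 4 cells). In each of the 11 classes it had at most 3 UMIs in either library. With so few B and plasmacytoid cells no ratio was formed.

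The patterns of the members over 21 profiles of a class in a library, on log2(CPM + 10), were compared with 7329 genes. The profiles share their 2 libraries and differ in depth, so the coefficients are descriptions. Ly6c1 and Ly6c2 were among each other's 4 nearest genes, with a Pearson r of 0.74. Ly6c1 had 277 UMIs and Ly6c2 24877, and how reads that fit both were counted is not known, so their likeness is uncertain. The others nearest to Ly6c2 were Atp8b4, a lipid flippase (0.81), Emb, an adhesion glycoprotein (0.77), and Zdhhc13, a palmitoyltransferase (0.73), and to Ly6c1 Naa16 (0.72), the interferon-induced GTPase gene Ifi47 (0.69) and Tpgs2 (0.65). Nearest to Ly6a were Dnaja2, a co-chaperone (0.92), Spcs1, a signal peptidase subunit (0.91), Lbh (0.90) and Rcan3, a calcineurin regulator (0.89). Nearest to Ly6e were Capg, an actin-capping protein (0.88), Taf6l (0.87), Lamtor4, a lysosomal Ragulator subunit (0.86), and Ripk3, a kinase of necroptosis (0.86). Nearest to Ly6g were Il1f9 (0.97), Chil1 (0.97), Stfa2l1 (0.96) and Lrg1 (0.96), but Ly6g had 207 UMIs, of which 183 were in anti-PD-1 neutrophils. Nearest to Ly6i were Cdc42ep2, a Cdc42 effector (0.95), Nfam1, an activating receptor (0.94), Slc2a6, a sugar transporter (0.92), and F10, coagulation factor X (0.91). Between members, r was 0.72 for Ly6a and Ly6e, 0.29 for Ly6a and Ly6c2, and -0.42 for Ly6a and Ly6g.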

How the data were processed

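The authors deposited raw UMI counts of 27998 genes in 737280 barcodes, empty droplets included, for each of 2 libraries. Per the submitters' processing notes, Cell Ranger 2.1 and the mm10 build were used; the sources used here give no other settings. Barcodes with at least 1000 UMIs (500 for neutrophils) and at most 10% mitochondrial UMIs were kept. Cells were gated on summed marker UMIs, with minimums set after marker counts had been seen, and passed to 1 class or left out. Member counts were summed per class and divided by the class total (CPM), with exact Poisson intervals. Ratios were formed with at least 20 cells in each library and 20 UMIs over both, with conditional binomial intervals; "2-fold" is a size, not a test. A library under 3 UMIs was set to 3, and no ratio was formed where that would make it the higher one. Genes left without a ratio in this way still count in the base of the shares over all genes. Shares of cells have exact binomial (Clopper-Pearson) intervals. The interval method was checked on simulated counts. The genes named are all 7 members, the 4 nearest genes per member by correlation and up to 4 of the most abundant genes per list. The members and lists were chosen with earlier results of these data known. Python 3.11.15, numpy 2.4.6, scipy 1.17.1, pandas 2.3.3 and Biopython 1.88 were used. The alternatives tried are given in the closing section.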

Additional observations from a re-analysis of the deposited data

Results flagged for a closer look

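Members with opposite differences in different classes were picked out. Ly6a had a log2 ratio of 2.29 in migratory dendritic cells and of -0.77 in classical monocytes; these were 1.52 with the marker minimums doubled and -0.34 without the calprotectin cells. Ly6c2 had one of 2.19 in neutrophils, with the control class set to 3 UMIs, and of -0.30 in macrophages. These were 1.13 with thinned cells and -0.79 with subgroups given the same weights in both libraries. With 1 library in each group these differences between classes were not tested. For Ly6a in classical monocytes, the share of cells with a UMI after thinning was 34% in control and 34.4% after anti-PD-1.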

How the results depend on the processing

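No paired analysis was possible because each group has 1 library; leaving out a replicate was impossible for the same reason. The 39 log2 ratios were recomputed under 11 alternatives where a ratio could be formed, in all 380 values. Of these, 343 moved by less than their counting interval, 37 moved further, and no ratio past 2-fold changed sign. The 343 include values that an alternative could not change, such as those outside classical monocytes when calprotectin monocytes were dropped. Thinned cells moved 12 values further and 20 by less, and doubled marker minimums 9 and 22. Subgroups weighted alike, meaning with the same weights in both libraries, moved 6 and 9. With each cell thinned to 1000 UMIs (500 for neutrophils), which also gives every cell the same weight, 34 combinations kept 20 UMIs, 7 were at least 2-fold higher and 1, Ly6c1 in CD8+ T cells, at least 2-fold lower. With no UMI minimum 12 of 59 were higher and 2 lower. The log2 ratios of Ly6a and Ly6c2 in CD8+ T cells stayed past 2-fold under all 11 (1.14 to 1.53 and 1.03 to 1.29). With subgroups weighted alike, the Gzmk subgroup of these cells weighed most, and its control value came from 16 cells. Ly6a in NK cells fell to 0.97 with thinned cells, Ly6i in macrophages to 0.75 with subgroups weighted alike, Ly6e in neutrophils to 0.59 with thinned cells, Ly6g in neutrophils to 0.96 and Ly6c1 in coreceptor-negative T cells to 0.96 with mitochondrial and ribosomal genes out of the total. In cDC2 the log2 ratio of Ly6c2 ran from 1.16 to 2.51. Doubled marker minimums moved Ly6i in cDC2 to 2.1 and Ly6a in migratory dendritic cells to 1.52, and gave the opposite sign for Ly6a in cDC2 (0.22), Ly6c2 in Foxp3+ T cells (-0.72) and Ly6i in migratory dendritic cells (-0.33, from 0.93). Thinned cells moved Ly6c2 and Ly6i in neutrophils to 1.13 and 2.19, Ly6c2 in Foxp3+ T cells to 1.45 and Ly6e in migratory dendritic cells to -0.90. The cause was not tested. The alternatives without calprotectin monocytes, without cycling cells and with subgroups weighted alike were chosen after seeing the data. Depth limits neutrophils most, where 3 UMIs are 181 CPM in the control library.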

Other observations

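Other genes with Ly6 or uPAR domains were mostly silent. Of 36 listed, 31 are in the files, 18 had 0 UMIs in all cells and 3 had at least 20: Plaur, the urokinase receptor (2474 UMIs, highest in anti-PD-1 neutrophils at 850 CPM), Ly6g5b (102 UMIs) and Ly6k (21 UMIs).

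Of the genes that build and attach the GPI anchor, 19 had enough UMIs in CD8+ T cells, 9 above and 7 below a log2 ratio of 0. The rest had no ratio, since a library set to 3 UMIs would have come out higher. At least 2-fold higher were 3 (Pigf, Pigk and Gpaa1) and lower 1 (Pgap1), beside 4.03% and 5.94% of all genes. Each had 3 to 5 control UMIs and a counting interval that includes 0, and each was named after its value was seen. The median log2 ratio was 0.10. In NK cells 0 of 14 were past 2-fold, beside 3.18% and 1.99% of all genes, with a median of -0.02. The medians elsewhere ran from -0.42 over 3 genes in CD4+ T cells to 0.59 over 4 in migratory dendritic cells. Conventional type 1 dendritic cells, 11 in control and 9 in anti-PD-1, had Ly6a at 367 and 509 CPM and Ly6c2 at 81.6 and 230 CPM.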
